A study of Homo sapiens with 6 samples.

Results

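In RPE-1 cells depleted of the splicing factor SON, 46 protein-coding genes that were clearly transcribed in control cells were left at 0 to 55 reads per library. They were chosen from the counts themselves. A gene's CPM, its counts scaled to a library of 1000000, was computed for each library from the library's total count. Protein-coding genes were taken when their mean over the 3 control libraries was at least 5 CPM and their mean over the 3 SON-depleted libraries was under 0.7 CPM. Of 58735 genes in the table, 19951 are protein-coding and 10187 of those reached 5 CPM in the controls. Of these, 49 passed both limits, and FBF1, ARRDC1 and PLEKHG4 were left out by name, which leaves 46. The same counts chose the genes and show their fall, so the size of that fall is given as a description, with no test.

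SON is a large RNA-binding protein of nuclear speckles, the nuclear bodies that store and deliver splicing factors. It helps the spliceosome to remove introns with weak splice sites, and it is known for its role in transcripts of cell-cycle and centrosome proteins. An intron that is left in a transcript can hold that RNA in the nucleus or bring in an early stop codon, and messages with an early stop codon are degraded by nonsense-mediated decay. Gene counts show how much RNA of a gene was present and do not show which introns were removed.

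All 6 libraries came from RPE-1, a human retinal pigment epithelial cell line, here with GFP-tagged CETN2, which marks centrioles, and with PLK4, the kinase that starts centriole duplication, under an rtTA-driven promoter that doxycycline switches on. Doxycycline at 1 µg/mL induced PLK4 in both groups, so no library shows SON depletion alone. Both groups were transfected with Lipofectamine RNAiMAX, 3 libraries with an siRNA against SON (siSON) and 3 with a control siRNA (siControl). The labels number the libraries 1 to 3 in each group and do not say whether they came from separate cultures, so p-values measure the spread between these libraries, which may be technical.

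The libraries held 54572365 to 69764836 counts, and 97.7% to 98.2% of them fell on protein-coding genes. Replicates differed by more than counting noise (chi-square over its degrees of freedom 7.16 to 26.1), so none was a second deposit of the same library. SON itself had 313, 337 and 304 CPM in siControl and 62.9, 66.1 and 60.5 CPM in siSON, so its log2 fold change was -2.14 ± 0.06 (SE; adjusted p 6.78e-10 in edgeR's quasi-likelihood test with Benjamini-Hochberg adjustment). PLK4 had a mean of 189.7 CPM in siControl and 129.3 in siSON (log2 fold change -0.36, edgeR adjusted p 0.0143), and CETN2 had 667.9 and 759.4. Among the markers of the labelled cell type, VIM, FN1, KRT8, KRT18, CDH2, MITF, OTX2 and BEST1 were present. The defining pigment epithelium genes RPE65 and RLBP1 had at most 18 counts in any library and TYR had 0, and CDH1 and EPCAM, markers of polarised epithelium, were near 0. Marker genes of leukocytes, endothelium, neurons and keratinocytes summed to 99.1 to 104.7 CPM in siControl and 28.4 to 31.0 in siSON, nearly all of it SYT1, while CD3E, RBFOX3 and KRT5 were at 0. Their part in the results below was not tested. A fall in a bulk library can come from fewer cells that express a gene or from less RNA per cell, and these cannot be told apart here.

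The silenced genes were of modest abundance before depletion. Their siControl means ran from 5.02 to 32.1 CPM with a median of 6.91, and their siSON means from 0.0600 to 0.697 with a median of 0.443. In counts, a siControl library held 254 to 2196 reads of a gene and a siSON library 0 to 55. The 46 genes together made up 382, 376 and 364 CPM in the siControl libraries, and 20.2, 22.0 and 19.6 CPM were left in the siSON libraries. The sums varied little within a group, and none of the 3 siSON libraries stood apart from the other two. The share of the siControl mean that remained in siSON had a median of 6.14% and ran from 0.396% to 13.2%, and it was under 5% for 18 of the 46. Over all 10187 protein-coding genes with at least 5 CPM in the controls the median share was 93.7%, with 108 genes (1.06%) under 10% and 25 under 5%.

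**Figure D1:**
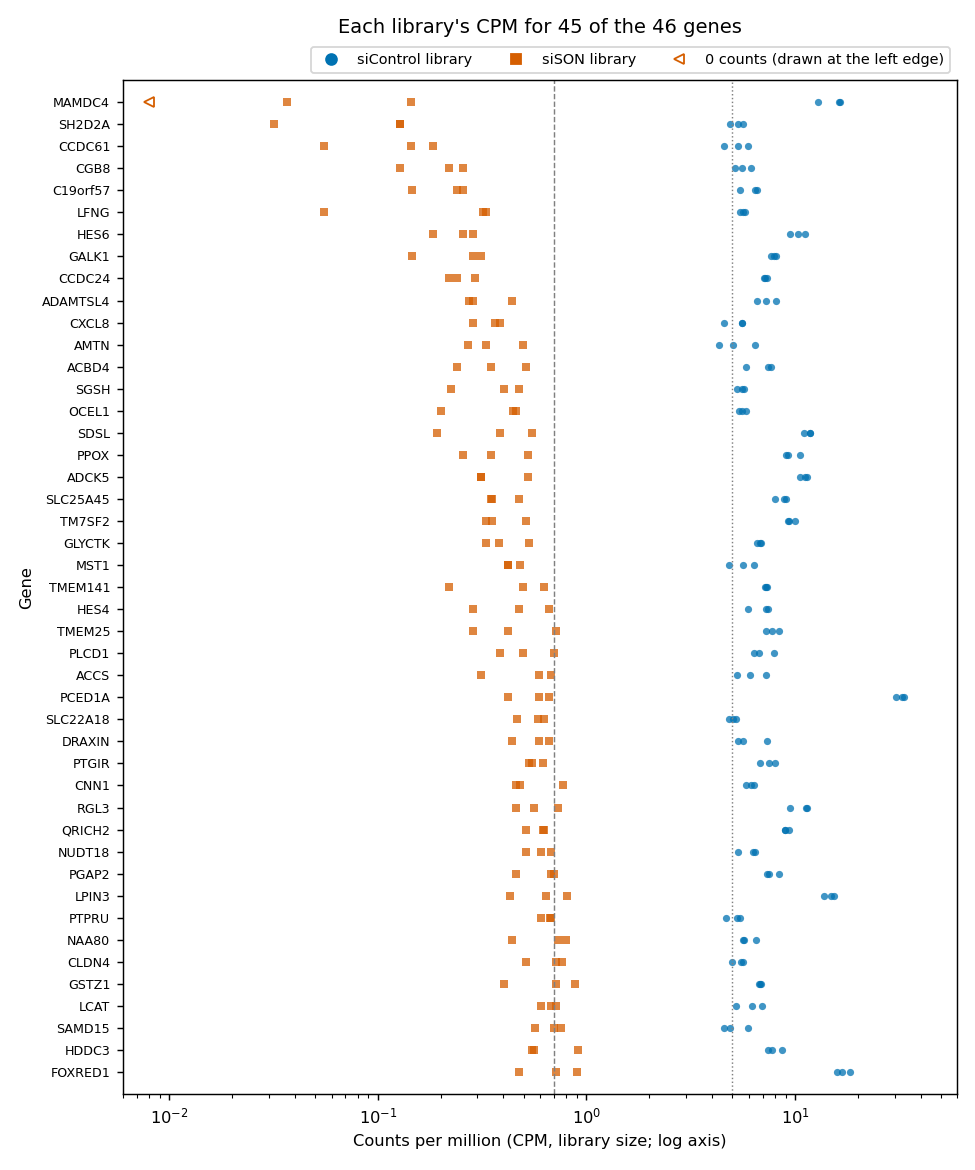
CPM of 45 of the 46 genes (rows, ordered by mean siSON CPM) on a log axis, with 1 point per library, siControl as circles and siSON as squares, a dotted line at 5 CPM and a dashed line at 0.7 CPM. The siControl and siSON points do not overlap for any gene, and MAMDC4 lies lowest, with 0 counts in siSON replicate 2.

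All 46 genes entered the model fitted to 16591 genes (their siControl counts, at least 254 in each library, were enough to pass the filter on low counts), and all 46 were called lower, with no overlap between groups. Across all genes tested 36.5% were called lower, 35.2% higher and 71.7% in either direction (35.5%, 45.6% and 81.1% of the protein-coding genes at 5 CPM or more in siControl), while groups did not overlap for 74.9%, 46.2% with every siSON library below every siControl library. The rule fixed the members' own count, and nothing is read from it. Their fitted log2 fold changes, siSON over siControl, had a median of -3.82 and ran from -7.65 to -2.72, while the median over all genes tested was -0.03. In single libraries, 37 of the 46 genes were at or above 5 CPM in every siControl library, and 34 were under 0.7 CPM in every siSON library.

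The choice was repeated with the libraries of 1 replicate number set aside in turn. It gave 44, 49 and 44 genes without replicates 1, 2 and 3, of which 42, 44 and 40 were among the 46. In the pair of libraries that had been set aside, 34 genes met both limits each time. The lowest siControl value of a chosen gene in a set-aside library was 3.67 CPM and the highest siSON value was 1.34 CPM. For every chosen gene the siSON library set aside thus lay below the siControl library set aside. Over all genes tested, 46.2% met the stricter condition that every siSON library lay below every siControl library. The share for a single pair of libraries was not computed. The libraries may be technical repeats, so a set-aside pair is not an independent check.

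The limits cut a continuous range of values. FOXRED1, at 0.697 CPM in siSON, lay just inside, as did HDDC3 at 0.674 and SAMD15 at 0.673. KYAT1, at 0.703 CPM in siSON, lay just outside, followed by GLB1L at 0.747, AZIN2 at 0.783, BIRC3 at 0.793 and STK32C at 0.798. A further 9 genes had siSON means of up to 0.898 CPM (TAZ). On the siControl side SLC22A18 passed at 5.02 CPM, and ROM1 missed the limit at 4.91, CAPS at 4.70, DUSP19 at 4.67, CORO1A at 4.60 and INPP5J at 4.51. CORO1A, the actin-binding protein coronin of leukocytes, had 0.144 CPM in siSON, less than most of the 46.

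**Figure D2:**
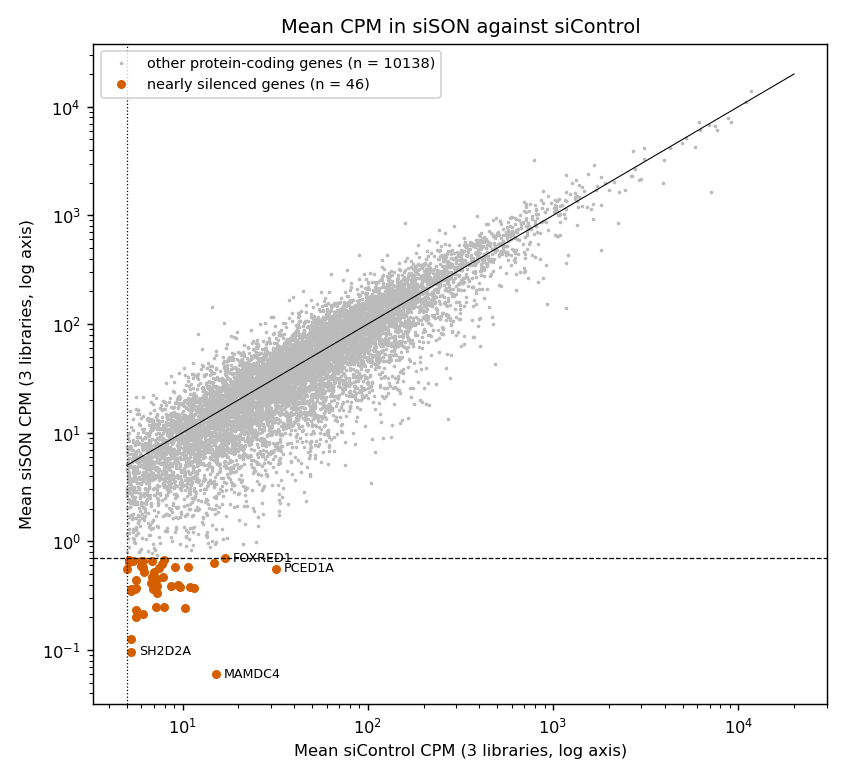
Mean CPM of 3 siSON libraries (vertical, log axis) against mean CPM of 3 siControl libraries (horizontal, log axis) for the 46 genes and 10138 other protein-coding genes at 5 CPM or more in siControl, with the line of equal values and the limits of 5 and 0.7 CPM. The 46 genes form the bottom left corner and thin out to the right, where PCED1A is the only one above 20 CPM in siControl.

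Since SON acts on introns, the introns of these genes were looked at first. The intron sequences below were picked because they carry the features in which the annotation of the 46 genes differs from that of other expressed genes. These are short introns and high GC content, and 1 intron without them was added. They do not stand for all introns of the 46 genes. Reference introns could be read for 30 of the genes, where GENCODE 29 (GRCh38) lists another transcript that keeps the intron. Each sequence is the shortest such intron of its gene, given 5′ to 3′ on the gene's strand, with the first 6 and the last 3 bases in capitals, the intron's part of the splice sites. The positions are chr9:136853459-136853544 for MAMDC4 (plus strand), chr17:75758373-75758448 for GALK1 (minus), chr1:999614-999691 for HES4 (minus), chr2:238239748-238239824 for HES6 (minus), chr11:65113415-65113490 for TM7SF2 (plus), chr19:11402133-11402214 for RGL3 (minus), chr7:2525319-2525413 for LFNG (plus), chr3:49687479-49687555 for MST1 (minus) and chr4:73741678-73741948 for CXCL8 (plus).
MAMDC4 intron 3: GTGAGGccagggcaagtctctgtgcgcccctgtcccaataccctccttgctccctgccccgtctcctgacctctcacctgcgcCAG
GALK1 intron 6: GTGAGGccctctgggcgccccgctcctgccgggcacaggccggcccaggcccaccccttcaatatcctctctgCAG
HES4 intron 1: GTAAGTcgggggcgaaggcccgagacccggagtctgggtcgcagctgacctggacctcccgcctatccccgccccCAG
HES6 intron 1: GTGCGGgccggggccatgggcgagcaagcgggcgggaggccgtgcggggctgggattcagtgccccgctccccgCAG
TM7SF2 intron 4: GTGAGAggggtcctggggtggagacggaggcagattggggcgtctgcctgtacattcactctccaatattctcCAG
RGL3 intron 12: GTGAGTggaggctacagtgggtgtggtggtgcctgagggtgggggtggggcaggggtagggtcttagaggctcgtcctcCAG
LFNG intron 3: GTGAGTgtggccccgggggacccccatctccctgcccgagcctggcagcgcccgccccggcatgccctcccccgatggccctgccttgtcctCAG
MST1 intron 3: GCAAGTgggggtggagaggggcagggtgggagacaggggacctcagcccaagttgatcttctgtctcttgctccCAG
CXCL8 intron 2: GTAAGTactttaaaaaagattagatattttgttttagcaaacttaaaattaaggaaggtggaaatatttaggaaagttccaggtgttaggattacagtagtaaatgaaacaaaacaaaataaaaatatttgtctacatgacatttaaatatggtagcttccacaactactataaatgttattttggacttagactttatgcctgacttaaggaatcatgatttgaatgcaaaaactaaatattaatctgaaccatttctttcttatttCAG
The first 8 introns are 76 to 95 bases long. Their GC content runs from 57.9% in TM7SF2 to 79.2% in HES6, and it is 72.4% in GALK1, 75.8% in LFNG and 65.9% in RGL3. The CXCL8 intron, at 271 bases and 26.6% GC, is the exception among the 9 printed. The 5′ splice site starts with GT in 8 of the 9, and in MST1 it starts with GC.

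Over the genes, 91 introns between coding exons could be read in this way, with a median length of 185 bases and a median GC content of 61.0%. For other protein-coding genes at 5 CPM or more, 6806 such introns of 3168 genes had medians of 245 bases and 55.1%. Of the 91, 46 (50.5%) were under 200 bases, against 42.4% of the others. At least 60% GC was found in 51 (56.0%), against 35.5%, so many introns of the silenced genes lack these features. In 75 of the 91 (82.4%), reading on through the intron in frame met a stop codon, against 86.0% of the others, so on this measure the silenced genes differed little. Of the 91 introns, 90 started with GT and ended with AG, and MST1 intron 3 did not.

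The whole gene models gave the same picture over all introns. In the transcript with the longest coding sequence, the median intron of a silenced gene was 380.5 bases (median over 46 genes), against 1835 bases over 10138 other expressed protein-coding genes and 2195 over the 4206 of these in the same range of siControl CPM. The shortest intron had a median of 109 bases against 229 and 322. The longest intron had a median of 2368 bases against 9970 and 10410. Exon number differed less, with a median of 8.5 against 10 and 8. All 46 genes had at least 1 intron, as did all but 149 (1.47%) of the 10138 other genes. Introns under 200 bases made up 145 of 410 (35.4%) in the silenced genes and 12.3% in the others.

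The genes were also compact and rich in GC. The median gene span was 11593 bases against 35777 bases in the other expressed genes, and 19 of 46 (41.3%) spanned under 10000 bases against 16.3%. The median GC content of the transcript was 61.6% against 48.5%, and 29 genes (63.0%) were at 60% or more against 14.7%. GENCODE lists a transcript that retains at least 1 of these introns for 30 genes (65.2%), against 34.3% of the other genes and 28.4% of those at similar levels. Counted by intron, 96 of 410 (23.4%) were kept in a listed transcript against 6.46%. Transcripts marked for nonsense-mediated decay were listed for 19 genes (41.3%) against 45.2%. These shares describe the annotation and the genes chosen, and no test was made of them.

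**Figure D3:**
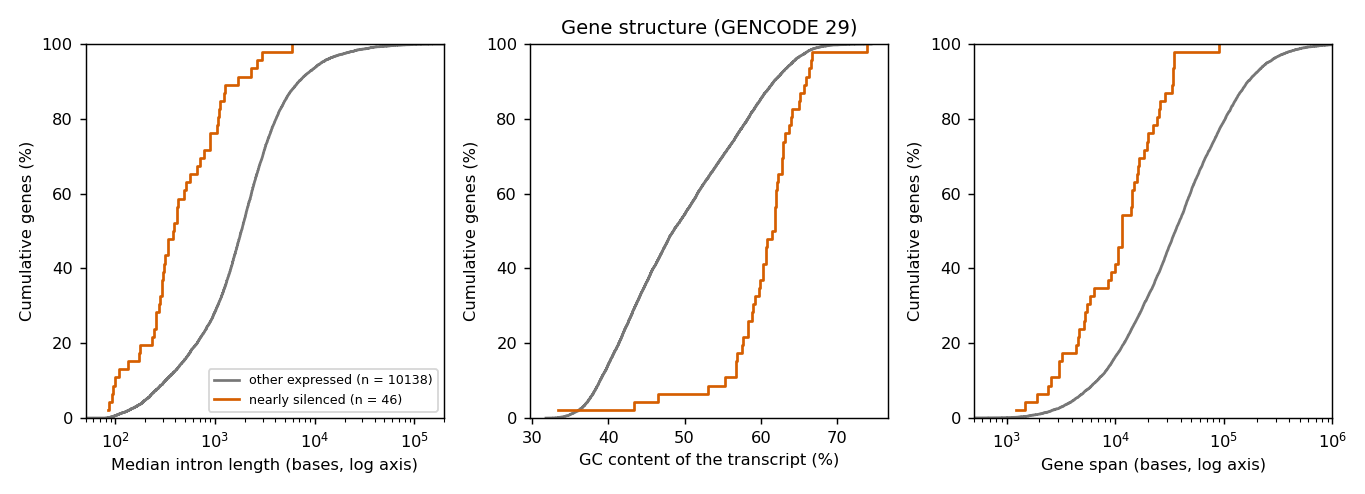
Cumulative percentage of genes (vertical axes) by median intron length (log axis, bases), transcript GC content (%) and gene span (log axis, bases) for the 46 silenced genes and 10138 other protein-coding genes at 5 CPM or more. The curve of the silenced genes lies at shorter introns and spans and at higher GC, with CXCL8, AMTN and SAMD15 as the 3 lowest in GC.

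Not all of the genes were of this kind. CXCL8 (33.4% GC), AMTN (43.4%) and SAMD15 (46.5%) were below the median GC of the other expressed genes. SAMD15 had a median intron of 5900.5 bases. PTPRU, with 31 exons, spanned 90298 bases.

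Compact structure was shared by many genes outside the 46. In all, 702 other expressed protein-coding genes had a median intron of at most 380.5 bases and a span of at most 11593 bases, as did 15 of the 46. Of the 702, 409 were called lower, 182 higher and 111 not called, with a median log2 fold change of -0.38, where that of all other expressed genes was 0.11. Of all protein-coding genes at 5 CPM or more, 35.5% were called lower and 45.6% higher, and the difference from these shares was not tested.

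Genes of mitochondria and intermediary metabolism were the largest group, with 12 of the 46 and a median log2 fold change of -4.15. Role groups were assigned by hand. Their shares among all expressed genes were not counted, so nothing is read from the size of a group. FOXRED1 (ENSG00000110074; GRCh38 chr11:126269055-126278131, plus strand), an assembly factor of respiratory complex I, had 1208, 987 and 1108 counts in siControl and 45, 49 and 26 in siSON, or 17.0 ± 1.26 and 0.697 ± 0.211 CPM (SD, n = 3). About 4.10% of its level remained. SDSL, a serine dehydratase-like enzyme, had 772, 694 and 767 counts in siControl and 12, 21 and 30 in siSON (11.5 ± 0.440 and 0.375 ± 0.179 CPM). ADCK5, an atypical kinase of the mitochondrial ADCK family, had 730, 671 and 735 counts and then 33, 17 and 17 (11.01 ± 0.433 and 0.383 ± 0.124 CPM). PPOX (ENSG00000143224; chr1:161166410-161178013, plus strand), the protoporphyrinogen oxidase of haem synthesis, had 697, 547 and 629 counts and then 33, 19 and 14 (9.63 ± 0.844 and 0.377 ± 0.137 CPM). SLC25A45, a carrier of the inner mitochondrial membrane, had 584, 532 and 557 counts and then 22, 26 and 19 (8.63 ± 0.564 and 0.392 ± 0.0731 CPM). In each of these 5 genes the lowest siControl library held more than 10 times the reads of the highest siSON library.

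A further 6 genes of this group were enzymes of single steps. GALK1 (ENSG00000108479; chr17:75751594-75765711, minus strand), the galactokinase that opens galactose breakdown, had 7.90 ± 0.226 CPM in siControl and 0.248 ± 0.0890 in siSON. GSTZ1, the isomerase of tyrosine breakdown, had 6.82 ± 0.0808 and 0.665 ± 0.241 CPM. GLYCTK, glycerate kinase, had 6.74 ± 0.125 and 0.415 ± 0.105 CPM. The siControl libraries of these 3 lay close together. HDDC3, a nucleotide phosphohydrolase also known as MESH1, had 7.96 ± 0.669 and 0.674 ± 0.209 CPM. NUDT18, a Nudix hydrolase, had 6.0 ± 0.582 and 0.599 ± 0.0824 CPM. ACCS, named for its likeness to a plant synthase, had 6.19 ± 0.990 and 0.526 ± 0.191 CPM. The 12 genes do not form 1 pathway and include respiratory assembly, haem, sugar, amino acid and nucleotide steps.

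Lipid, sterol and glycan enzymes gave 7 genes with a median log2 fold change of -4.06. LPIN3 (ENSG00000132793; chr20:41340920-41360582, plus strand), a phosphatidate phosphatase that makes diacylglycerol, had 978, 910 and 962 counts in siControl and 27, 44 and 35 in siSON (14.7 ± 0.840 and 0.626 ± 0.188 CPM). TM7SF2 (ENSG00000149809; chr11:65111845-65116384, plus strand), a sterol reductase of cholesterol synthesis, had 654, 546 and 649 counts and then 22, 18 and 28 (9.50 ± 0.378 and 0.398 ± 0.1004 CPM). GENCODE lists retained forms for 7 of its 9 introns. LFNG (ENSG00000106003; chr7:2512529-2529177, plus strand), the glycosyltransferase that adds N-acetylglucosamine to fucose on Notch receptors, had 370, 338 and 380 counts and then 20, 18 and 3 (5.60 ± 0.146 and 0.234 ± 0.156 CPM). Library 3 of siSON was the lowest of the group for LFNG by a wide margin. LCAT, which esterifies cholesterol on lipoproteins, had 6.14 ± 0.874 and 0.666 ± 0.0551 CPM. PGAP2, which remodels the lipid of GPI anchors, had 7.74 ± 0.529 and 0.612 ± 0.134 CPM. SGSH, the lysosomal sulfamidase that degrades heparan sulfate, had 5.505 ± 0.212 and 0.367 ± 0.130 CPM. ACBD4, an acyl-CoA-binding protein, had 6.97 ± 1.03 and 0.367 ± 0.138 CPM.

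Receptors and proteins that pass on signals gave 5 genes, with a median log2 fold change of -3.54. RGL3 (ENSG00000205517; chr19:11384341-11419342, minus strand), an exchange factor for Ral GTPases, had 740, 671 and 656 counts in siControl and 35, 40 and 25 in siSON (10.7 ± 1.11 and 0.583 ± 0.139 CPM). SH2D2A (ENSG00000027869; chr1:156806243-156816862, minus strand), an SH2 adaptor best known from T cells, had 369, 288 and 373 counts and then 2, 7 and 7 (5.28 ± 0.364 and 0.0961 ± 0.0556 CPM). Only MAMDC4 had a lower mean in siSON. PTGIR, the prostacyclin receptor, had 7.43 ± 0.596 and 0.567 ± 0.0479 CPM. PLCD1, a phospholipase C, had 7.02 ± 0.828 and 0.525 ± 0.158 CPM. PTPRU, a receptor tyrosine phosphatase with an extracellular MAM domain, had 5.13 ± 0.403 and 0.651 ± 0.0404 CPM. The last kept 12.7% of its control level, near the upper end of the range.

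Both transcription factors of the set belong to the HES family of basic helix-loop-helix proteins, several of which answer to Notch. HES6 (ENSG00000144485; chr2:238238267-238240662, minus strand) had 620, 611 and 781 counts in siControl and 18, 14 and 10 in siSON, or 10.3 ± 0.887 and 0.242 ± 0.0533 CPM. HES4 (ENSG00000188290; chr1:998962-1000172, minus strand) had 475, 352 and 515 counts and then 18, 36 and 26, or 6.86 ± 0.770 and 0.474 ± 0.186 CPM. The groups lay far apart for both. HES4 is the shortest gene of the 46, at 1211 bases with 3 exons, and has the highest transcript GC content, 73.9%. HES6 spans 2396 bases with 4 exons. Their first introns, 78 and 77 bases long, are printed above.

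Secreted and matrix proteins gave 6 genes, with a median log2 fold change of -3.69. CXCL8 (ENSG00000169429; chr4:73740506-73743716, plus strand), the chemokine that draws neutrophils, had 368, 327 and 320 counts in siControl and 18, 21 and 20 in siSON (5.24 ± 0.569 and 0.346 ± 0.0519 CPM). MST1 (ENSG00000173531; chr3:49683947-49689501, minus strand), the macrophage-stimulating ligand of the receptor MST1R, had 5.60 ± 0.754 and 0.440 ± 0.0329 CPM. GENCODE lists retained forms for 12 of its 17 introns, the highest number among the 46. ADAMTSL4, a protein of fibrillin microfibrils, had 7.31 ± 0.735 and 0.334 ± 0.0917 CPM. DRAXIN, a secreted axon guidance protein, had 6.09 ± 1.07 and 0.563 ± 0.112 CPM. AMTN, the enamel protein amelotin, had 5.26 ± 1.09 and 0.365 ± 0.116 CPM, with 425, 254 and 350 counts in siControl. CGB8, a beta subunit of chorionic gonadotropin, had 368, 362 and 361 counts and then 16, 12 and 7 (5.64 ± 0.486 and 0.201 ± 0.0654 CPM). MST1 and CGB8 have near-identical copies in the genome, and how the counting treated reads that fit several places is not given in the sources used here, so their counts are uncertain.

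Cytoskeleton, centriole and junction proteins gave 5 genes, and their median log2 fold change of -3.23 was the smallest of the groups. CCDC61 (ENSG00000104983; chr19:45995461-46021318, plus strand), a protein of centrioles and basal bodies, had 301, 314 and 413 counts in siControl and 9, 10 and 3 in siSON (5.27 ± 0.674 and 0.127 ± 0.0656 CPM). It stood well below the other 4, with 2.41% remaining. QRICH2, a protein of the sperm flagellum, had 588, 549 and 624 counts and then 39, 34 and 28 (9.07 ± 0.218 and 0.586 ± 0.0630 CPM). CNN1, the actin-binding calponin of smooth muscle, had 6.12 ± 0.278 and 0.569 ± 0.174 CPM. NAA80, the acetyltransferase of the actin N terminus, had 5.93 ± 0.471 and 0.656 ± 0.190 CPM. CLDN4, a claudin of tight junctions, had 5.37 ± 0.336 and 0.664 ± 0.134 CPM. NAA80 and CLDN4 have 2 exons each and so a single intron.

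The remaining 9 genes were assigned no role here, and they include both extremes of the set. PCED1A (ENSG00000132635; chr20:2835314-2841190, minus strand) had 2196, 1918 and 2115 counts in siControl and 37, 23 and 36 in siSON (32.1 ± 1.58 and 0.557 ± 0.123 CPM), the highest control level of the 46. MAMDC4 (ENSG00000177943; chr9:136850943-136860799, plus strand), a membrane protein with MAM domains, had 1075, 955 and 903 counts and then 9, 0 and 2 (15.2 ± 1.92 and 0.0600 ± 0.0746 CPM). The 0 in siSON replicate 2 allows up to 0.0549 CPM, taken as 3 counts, and covers counting error only. MAMDC4 has 29 exons in 9857 bases and a median intron of 109.5 bases. C19orf57, a factor of meiotic recombination, had 433, 319 and 448 counts and then 15, 14 and 8 (6.14 ± 0.632 and 0.214 ± 0.0590 CPM). CCDC24 had 7.22 ± 0.138 and 0.251 ± 0.0381 CPM, and OCEL1 had 5.59 ± 0.245 and 0.369 ± 0.145. TMEM25 had 7.80 ± 0.564 and 0.474 ± 0.219 CPM, and TMEM141 had 7.27 ± 0.0928 and 0.446 ± 0.206. SAMD15 had 5.12 ± 0.742 and 0.673 ± 0.0950 CPM, and SLC22A18, an organic cation transporter-like protein, had 5.02 ± 0.174 and 0.557 ± 0.0840. SAMD15 kept the largest share of the 46, 13.2%, and MAMDC4 the smallest, 0.396%.

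Levels of different genes were compared per kilobase of merged exons. In siControl they ran from 0.768 CPM per kilobase for PTPRU to 13.7 ± 0.676 for PCED1A, with a median of 2.09. CGB8 (6.39 ± 0.551) and HES4 (6.13 ± 0.689) followed PCED1A and did not differ beyond their spread. PCED1A stood above both by more than its spread.

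The genes lay on 15 chromosomes, with 7 each on chromosomes 1, 11 and 19. Chromosome 19 held 15.2% of them and 6.34% of the protein-coding genes at 5 CPM or more, and chromosome 11 held 15.2% and 5.78%. The closest pairs were GSTZ1 and SAMD15, 45.1 kb apart, and TMEM141 and MAMDC4, 57.7 kb apart, so no 2 of the 46 were direct neighbours within 1000 bases.

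Genes next to the silenced genes were not used by the rule, and their own counts were tested. Of 64 genes that overlap one of the 46 or lie within 1000 bases of it, 36 had enough counts to test, and 20 were called lower, 8 higher and 8 not called (edgeR adjusted p under 0.05). The share called lower, 55.6%, stands beside 36.5% of all genes tested, and the difference between these shares was not tested. Among 27 that overlap a silenced gene, 17 were lower and 3 higher, and among 9 that do not, 3 were lower and 5 higher. All 5 that overlap on the same strand were called lower. They are HYAL3 (sharing 3020 bases with NAA80), PHPT1 (85 with MAMDC4), VPS51 (16 with TM7SF2), SLC12A4 (658 with LCAT) and EPOR (2 with RGL3). NAA80 lies wholly within HYAL3. Of the 46 genes 34 overlap another gene and 27 overlap one on the opposite strand. Whether reads were counted by strand, and where reads of overlapping genes went, is not given in the sources used here, so reads of such partners cannot be told apart.

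The 6 neighbours with the smallest adjusted p were APEH, PLCD3, UNC45A, B4GALT2, VPS16 and PHPT1. APEH, an acylpeptide hydrolase whose end overlaps that of MST1, had 75.5 ± 1.26 CPM in siControl and 8.13 ± 0.742 in siSON (log2 fold change -3.02, SE 0.08, edgeR adjusted p 6.78e-10). UNC45A, a myosin chaperone that overlaps nearly all of HDDC3, had 124 ± 2.60 and 45.3 ± 1.71 CPM (-1.26, SE 0.06, edgeR adjusted p 8.68e-09). PHPT1, a protein histidine phosphatase upstream of MAMDC4, had 94.2 ± 3.23 and 45.3 ± 0.644 CPM (-0.86, SE 0.05, edgeR adjusted p 9.41e-08). B4GALT2, a galactosyltransferase that ends 188 bases before CCDC24, had 72.6 ± 4.05 and 141 ± 6.08 CPM (1.16, SE 0.06, edgeR adjusted p 2.78e-08). The groups did not overlap for these 4 genes. These 3 lower neighbours kept more of their level than the gene they adjoin, an order largely set by the rule that chose the silenced genes. B4GALT2 rose beside CCDC24, of which 3.47% remained.

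Pairs that start close together and run in opposite directions allow a closer comparison, since both starts lie within 1000 bases. In 11 such pairs the partner was tested, and 5 partners were called lower, 3 higher and 3 not called. The share called lower, 45.5%, stands beside 36.5% of all genes tested, where 35.2% were called higher. The difference was not tested, and with 11 genes nothing is read from it. PLCD3, the phospholipase C gene beside ACBD4, had 193 ± 10.3 CPM in siControl and 38.1 ± 0.968 in siSON (log2 fold change -2.14, SE 0.06, edgeR adjusted p 6.78e-10). VPS16, a tethering subunit of late endosomes beside PCED1A, had 23.3 ± 0.971 and 7.14 ± 0.442 CPM (-1.51, SE 0.09, edgeR adjusted p 5.03e-08). CC2D1A, a signalling scaffold beside C19orf57, had 45.3 ± 0.906 and 15.4 ± 2.45 CPM (-1.36, SE 0.10, edgeR adjusted p 4.10e-07). ISG15, the interferon-induced ubiquitin-like protein beside HES4, had 21.8 ± 0.389 and 7.71 ± 0.455 CPM (-1.31, SE 0.08, edgeR adjusted p 9.76e-08). RNF123, a ubiquitin ligase beside MST1, had 50.7 ± 2.19 and 18.9 ± 3.43 CPM (-1.23, SE 0.11, edgeR adjusted p 2.36e-06). These 5 partners fell, each with a smaller fold change than the silenced gene beside it, a difference within pairs that was not tested. The rule chose the silenced genes for their large fall, so this order was largely set in advance and nothing is read from it.

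In the other 6 pairs the partner was not called lower, with 3 called higher and 3 not called. NUP98, a nuclear pore protein whose start lies 68 bases from that of PGAP2, had 118 ± 3.42 CPM in siControl and 165 ± 2.62 in siSON (log2 fold change 0.67, SE 0.05, edgeR adjusted p 3.86e-07). TMED8 beside SAMD15 had 26.3 ± 1.96 and 31.9 ± 3.43 CPM (0.48, SE 0.09, edgeR adjusted p 0.000535). WDR82, a subunit of a histone methyltransferase complex beside GLYCTK, had 137 ± 6.97 and 165 ± 8.35 CPM (0.47, SE 0.06, edgeR adjusted p 1.87e-05). These 3 rose. POMT2 beside GSTZ1 (42.3 ± 0.667 and 41.4 ± 3.49 CPM) had a log2 fold change of 0.17 (edgeR adjusted p 0.0623), and it was called higher without siSON replicate 2 or without siSON replicate 3. MAD2L2 beside DRAXIN (26.05 ± 1.49 and 24.6 ± 0.830 CPM) had 0.11 (edgeR adjusted p 0.174), and SRPRA beside FOXRED1 (241 ± 10.4 and 224 ± 4.10 CPM) had 0.09 (edgeR adjusted p 0.129). With scaling by library size alone the log2 fold changes of POMT2, MAD2L2 and SRPRA turned to -0.03, -0.08 and -0.11, and none was called. The silenced genes of these 6 pairs kept 4.10% to 13.2% of their level.

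**Figure D4:**
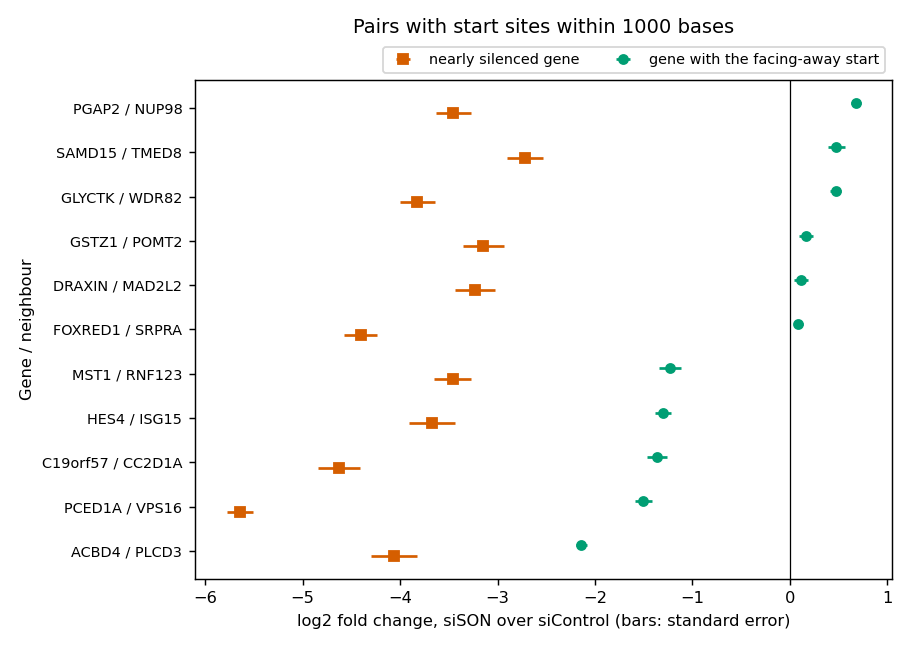
Log2 fold change, siSON over siControl, of 11 silenced genes (squares) and of the gene that starts within 1000 bases and runs the other way (circles), with bars for the standard error from 3 libraries per group. The squares lie between -5.64 and -2.72 and the circles between -2.14 and 0.67.

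The stretch between the start sites of DRAXIN and MAD2L2 is shown since the 2 genes part at it. It runs over chr1:11691651-11691728 (GRCh38), is written on the DRAXIN strand (plus), and is taken from the RefSeq promoter of DRAXIN.
DRAXIN and MAD2L2: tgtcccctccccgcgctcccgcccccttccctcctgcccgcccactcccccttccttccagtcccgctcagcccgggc
It has 78 bases and 76.9% GC. RefSeq promoters (GRCh38.p14, 250 bases before to 50 after the start) were found for 35 of the 46 genes. Their median GC content was 68.3%, against 65.7% for 8488 other expressed protein-coding genes, and 26 of 35 (74.3%) were at 60% or more against 72.9%. The letters TATAAA on the gene's strand in the 50 bases before the start were found in 2 of 35 (5.71%), CXCL8 and HES6, against 1.38% of the others. Promoter GC thus differed by much less than transcript GC did.

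Family members of the silenced genes, taken as protein-coding genes with the same symbol stem, were the second set whose counts the rule did not use. For 28 genes such relatives were listed, 13 had none, and 5 carry stems shared by over 40 genes (CCDC, TMEM and SLC25A) and were left out. Of 172 relatives 106 were tested, and 54 were called lower, 31 higher and 21 not called, with a median log2 fold change of -0.29. The share called lower, 50.9%, stands beside 36.5% of all genes tested, and this difference was not tested. On other chromosomes than their family member, 79 relatives were tested, with 40 lower and 23 higher. A shared stem does not prove kinship, and the symbols that start with C19orf only number loci. Without them 94 relatives were tested, 48 of them lower and 26 higher.

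In several families at least 1 relative rose or was not called. LPIN1 and LPIN2, the other lipin phosphatases, rose, with log2 fold changes of 1.21 (SE 0.06, edgeR adjusted p 2.32e-08) and 0.69 (SE 0.05, edgeR adjusted p 3.32e-07). LPIN1 had 73.3 ± 4.18 CPM in siControl and 148 ± 4.79 in siSON, where LPIN3 had 14.7 and 0.626. CNN2 and CNN3, the calponins of non-muscle cells, rose by 0.70 each (edgeR adjusted p 2.40e-07 and 3.17e-07), while CNN1 was nearly lost. HES1, the best known Notch target of the HES family, rose by 0.97 (SE 0.10, edgeR adjusted p 4.63e-06), from 10.96 to 18.8 CPM. QRICH1 rose by 0.90 (SE 0.06, edgeR adjusted p 9.95e-08). MAMDC2, at 68.5 CPM in siControl and 58.9 in siSON, was not called (log2 fold change -0.02, edgeR adjusted p 0.777), nor was PCED1B (-0.13, edgeR adjusted p 0.439). MAMDC2 was called lower with scaling by library size alone.

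In other families the relatives fell as well, most of those named here by less than the silenced gene, which the rule chose for its large fall. Of 106 relatives tested, 13 had a log2 fold change of -2.7 or lower, 3 of them CGB genes. Most of the 13 had low counts and were not tested when a mean count of at least 50 was required. Some fell by more than their family member, such as CLDN7 (-5.07, beside -2.81 for CLDN4) and SAMD11 (-3.38, beside -2.72 for SAMD15). Both CLDN7 and SAMD11 were among these low-count genes. PLCD3 and PLCD4 fell by 2.14 and 1.39 on the log2 scale (edgeR adjusted p 6.78e-10 and 3.53e-07), beside -3.54 for PLCD1. PGAP1 and PGAP3, which act on the same GPI anchors as PGAP2, fell by 1.14 and 2.04 (edgeR adjusted p 8.95e-07 and 3.11e-07). FOXRED2 fell from 49.6 ± 2.88 to 14.5 ± 0.247 CPM (log2 fold change -1.58, SE 0.07, edgeR adjusted p 1.14e-08). GALK2, at 15.9 CPM in siControl and 9.92 in siSON, fell by 0.48 (edgeR adjusted p 0.000334). HES7, of the same family as HES1, which rose, had 0.928 CPM in siControl and fell by 3.49 (edgeR adjusted p 1.49e-05). MST1R, counted among the relatives above for its shared symbol stem, is not a relative of MST1 but its receptor, and it fell from 1.06 to 0.103 CPM (log2 fold change -3.19, SE 0.58, edgeR adjusted p 0.000453), so ligand and receptor were both low. All 4 CGB genes tested fell, by 2.11 to 5.60, and as near-identical copies of CGB8 their counts are not independent of it.

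Further families were split. Over all genes tested 36.5% were called lower and 35.2% higher, so nothing is read from a split within a family. Among the SH2D genes SH2D4A rose from 20.1 ± 0.576 to 41.7 ± 0.267 CPM (log2 fold change 1.25, SE 0.07, edgeR adjusted p 2.68e-08) and SH2D5 fell by 3.01 (edgeR adjusted p 7.23e-06). SAMD4A rose from 32.0 ± 2.72 to 73.9 ± 1.16 CPM (1.40, SE 0.07, edgeR adjusted p 2.39e-08), while 7 of 11 SAMD genes tested were lower. Of 18 NUDT genes tested 11 were lower and 4 higher, among them NUDT21, whose call was lost under 7 of 13 other settings, and NUDT22 fell from 18.2 ± 0.737 to 3.50 ± 0.369 CPM (-2.18, SE 0.11, edgeR adjusted p 1.60e-08). Of 11 NAA genes, subunits of N-terminal acetyltransferases, 5 were higher and 3 lower. RGL1 rose by 0.41 and RGL2 fell by 1.12 (edgeR adjusted p 0.000237 and 2.41e-07), and ADCK1 rose by 0.65 and ADCK2 fell by 1.23 (edgeR adjusted p 0.00375 and 9.67e-07). The fringe partners of LFNG carry other stems and were looked up by name. RFNG fell from 30.8 ± 0.810 to 12.8 ± 0.639 CPM (-1.07, SE 0.07, edgeR adjusted p 2.24e-07), and MFNG rose from 0.122 ± 0.132 to 0.714 ± 0.167 CPM (2.71, SE 0.57, edgeR adjusted p 0.00126), a gene near the lower limit in siControl.

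**Figure D5:**
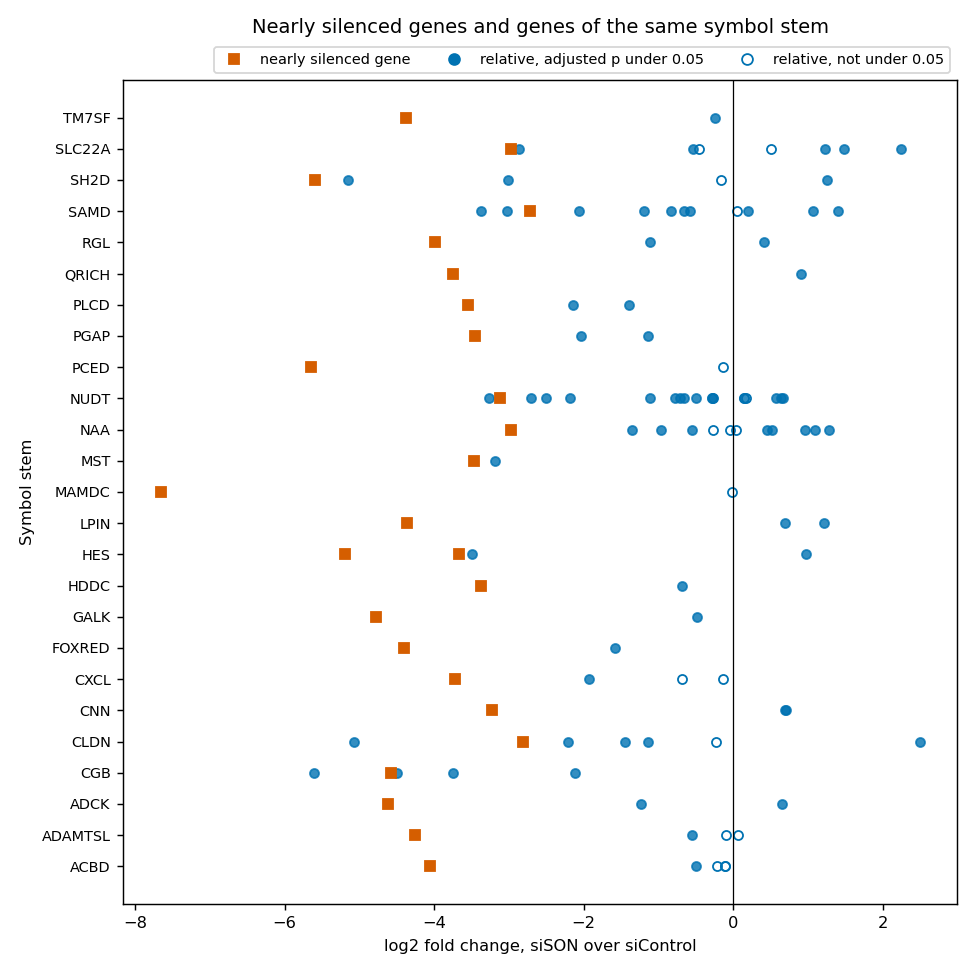
Log2 fold change, siSON over siControl, of the silenced genes (squares) and of tested genes with the same symbol stem (circles, filled where the edgeR adjusted p was under 0.05), 1 row per stem drawn. The lipin (LPIN), calponin (CNN) and QRICH rows have every relative to the right of 0, and the PLCD, PGAP and CGB rows have every relative to the left.

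Factors of nonsense-mediated decay were counted as the pathway that removes messages with early stop codons. All 20 listed factors were tested, and 14 were called higher, 2 lower and 4 not called, with a median log2 fold change of 0.52 (12 higher and 3 lower when scaled by library size alone). Beside these counts, 35.2% of all genes tested and 45.6% of the protein-coding genes at 5 CPM or more were called higher. SMG5 rose from 105.3 ± 4.79 to 244 ± 11.9 CPM (log2 fold change 1.41, SE 0.06, edgeR adjusted p 5.88e-09). Of 23 SH2 adaptors other than SH2D2A that were tested, 11 were higher and 9 lower, and of 6 MAM domain proteins other than MAMDC4 and PTPRU 4 were higher and 1 lower, where 45.6% and 35.5% of the protein-coding genes at 5 CPM or more were called higher and lower. The medians of these lists, 0.19 and 0.17, turned to -0.01 and -0.03 when scaled by library size alone, so neither list had a direction that held under both scalings.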

How the data were processed

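RNA-seq was read from 1 deposited table of whole-number read counts per gene in 6 libraries, not normalized. The submitters' processing notes name cutadapt 1.16, STAR 2.5.2a, featureCounts 1.6.2, DESeq2 1.28.1 and hg38. The strand setting, the annotation release and the handling of multi-mapping reads are not given in the sources used here. All 58735 identifiers matched GENCODE 29 (GRCh38), which gave positions and introns.

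CPM used library totals. Group differences were fitted with edgeR 4.0.16 in R 4.3.3 (TMM scaling, filterByExpr with a minimum count of 10, robust quasi-likelihood, group alone as predictor) over all genes, with Benjamini-Hochberg adjustment and a threshold of 0.05. The standard error is the absolute log2 fold change over the square root of F. CPM carries no TMM factor, so ratios of CPM differ from fitted values by about the shift of the median gene, from -0.03 to -0.22. The steps were tested on simulated data. A floor of 3 counts was 0.0430 to 0.0550 CPM.

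Of the 46 genes 45 are named, with library counts for the 12 highest in siControl and the 6 lowest in siSON (CXCL8 and HES4 were added, with siControl counts of AMTN), every tested gene with a start within 1000 bases, and the 6 neighbours and 6 relatives with the smallest adjusted p (1 neighbour is also a relative). Other relatives, RFNG, MFNG and 1 decay factor were named after their values were seen. The members, lists, role groups and relations were chosen with earlier results of these data known. Some genes and sequences are not reported here. Alternatives were RLE or library-size scaling, other count filters, DESeq2 1.42.0, limma-voom (limma 3.58.1), a replicate block, each library left out, and other distances and limits.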

Additional observations from a re-analysis of the deposited data

How the results depend on the processing

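The 46 genes were called lower in all 13 other fits, where 36.5% of all genes tested were called lower in the main fit. These fits use the counts by which the rule chose the genes, so nothing is read from these calls. Their median log2 fold change was -4.02 with scaling by library size alone, against -3.82, and -3.93 to -3.77 when each library was left out. That scaling also moved the share of called genes that were higher from 49.1% to 37.7% (4441 higher, 7351 lower). Other limits moved the number of genes: 27 with every library past the limits, 26 with siSON under 0.5 CPM, 72 with siSON under 1 CPM, and 33 with TMM-scaled CPM; leaving out each library gave 44 to 49. Neighbours within 5000 bases gave 47 called (15 higher, 32 lower, of 59), against 28 within 1000, and overlapping genes alone gave 20 (3 higher, 17 lower). The shortest intron over all transcripts had a median of 105 bases, against 109. Leaving out each library gave 11153 to 11783 genes called, 26 to 29 neighbours, 83 to 86 relatives, and a SON log2 fold change of -2.18 to -2.10. Same-numbered libraries deviated together with a mean correlation of 0.119 (0.0461 to 0.194), against -0.0595 (-0.138 to 0.0286) for different numbers. All 6 libraries correlated best with their own number. The labels do not say whether the numbers pair the libraries, and the main fit used no pairing. With the replicate number as a block 12313 genes, 29 neighbours and 90 relatives were called, the members' median was -3.83 and SON was at -2.14 (edgeR adjusted p 2.42e-11). POMT2 was then called higher. Among the neighbours, ITGB4, B4GALT3, IFT46, HYAL1 and AL645608.7 lost their call in at least 1 fit. Levels under the 3-count floor cannot be told from 0.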
